A study of Drosophila melanogaster with 12 samples.

Results

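The subject is the response of fly heads carrying the mutation Shu to lithium, measured as the difference between 3 arrays of mutant heads at 50 mM (Shu_50) and 3 arrays of mutant heads at 0 mM (Shu_0), 6 of the 12 arrays of the study. The comparison was chosen by the array titles and not by any measured value, and it covers every probe set that is no array control and has a usable signal, 11261 of 18952. All arrays measured total RNA from heads of Drosophila melanogaster on an Affymetrix chip, where a probe set is a group of short probes for one transcript. The mutant groups are Shu_0, without treatment, and Shu_50, at 50 mM, where the labels name no drug and lithium is known from the title of the series. The wild type groups are CS_0, without treatment, and CS_50, on lithium at 50 mM, and they enter through the shared spread and for comparison. The labels give no sex, age or length of treatment. They do not say whether the replicates came from separate cultures, so the p values measure only the spread between these samples, which may be technical. Shu (Shudderer) is listed by the annotation as an allele name of para, which encodes the voltage-gated sodium channel behind the rising phase of nerve impulses in flies.

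Lithium is a small cation used to treat mood disorders, and its best known direct targets are the kinase GSK-3 (sgg in the fly) and the phosphatases that recycle inositol. The enzymes that figure most in the results below make serine, pass its carbon to folate and methionine, and build purines. Serine is made from a glycolytic intermediate by a dehydrogenase, an aminotransferase and a phosphatase. A carbon of serine is then moved onto folate, which hands it on to purine rings and to the methyl groups of methionine, while the pentose phosphate pathway supplies the ribose of nucleotides.

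The heads of the mutant arrays showed the markers they should hold. A gene counts here as on the array only if the annotation gives it a probe set that names it alone. All 10 neuron markers and all 7 photoreceptor markers on the array passed the filter on dim probe sets, as did 11 of 12 glial markers. The photoreceptor list held 13 genes, and those without such a probe set, ninaE and norpA among them, were not assessed. Midgut markers, of which 3 of 17 on the array passed the filter, had a summed signal of 723 in Shu_0 replicate 2 against 118 to 145 in the other 5 mutant arrays. Ovary and chorion markers (5 of 17 passing) summed to 556 in the same array against 110 to 201 in the others. Shu_0 replicate 2 therefore stood apart in these markers. Leaving it out gave 203 called probe sets in place of 209, but not the same ones. Among 235 probe sets that name 1 gene and were called or belong to a gene named here, 41 lost the call and 2 gained it. For control genes the log2 ratio of signal at the 3' end over the 5' end, a sign of RNA quality, overlapped between the groups for each of 4 genes. The means in Shu_0 and Shu_50 were 2.54 and 2.53 for eIF-4a, 1.00 and 0.92 for GAPDH and 1.09 and 1.18 for ACTIN. For 18S they were 0.67 and 0.88, with Shu_50 replicate 2 highest at 1.42. On the first principal component of the 6 arrays, which held 26.6% of the variance, the Shu_0 arrays lay between -16.3 and -9.13 and all Shu_50 arrays above 0, up to 13.3.

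Lithium changed a small share of the probe sets in the mutant, and more of them upwards than downwards. Of 11261 probe sets, 209 (1.86%) had an adjusted p under 0.05 by limma after the method of Benjamini and Hochberg and are termed called, 136 higher (1.21%) and 73 lower (0.648%). The called probe sets that name a single gene stand for 173 of 8612 tested genes, 109 higher and 64 lower. The gene lists below were chosen with earlier results of these data known, so the shares called in them are descriptive. Those shares count genes with any called probe set, while the share set beside them counts probe sets. Among those called, 18 rose by more than 1 on the log2 scale and 4 fell by more than 1. The called probe sets were brighter than most, with a median signal of 591 for those higher and 370 for those lower against 112 over all tested. Across all tested probe sets the median difference was -0.0123 (log2) and 46.8% were higher. In 1776 probe sets (15.8%) the 3 arrays of one group all lay above the 3 of the other, 852 higher (7.57%) and 924 lower (8.21%). Without Shu_0 replicate 1 the count of called probe sets was 127, and without the intensity trend in the spread it was 91. The size of a difference is given as log2 of Shu_50 over Shu_0 after an offset of 6.26 was added to each signal, with its moderated standard error at n = 3 arrays a group, and the offset makes differences of dim probe sets smaller. In heads, fewer cells of a type and less RNA per cell cannot be told apart.

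**Figure D1:**
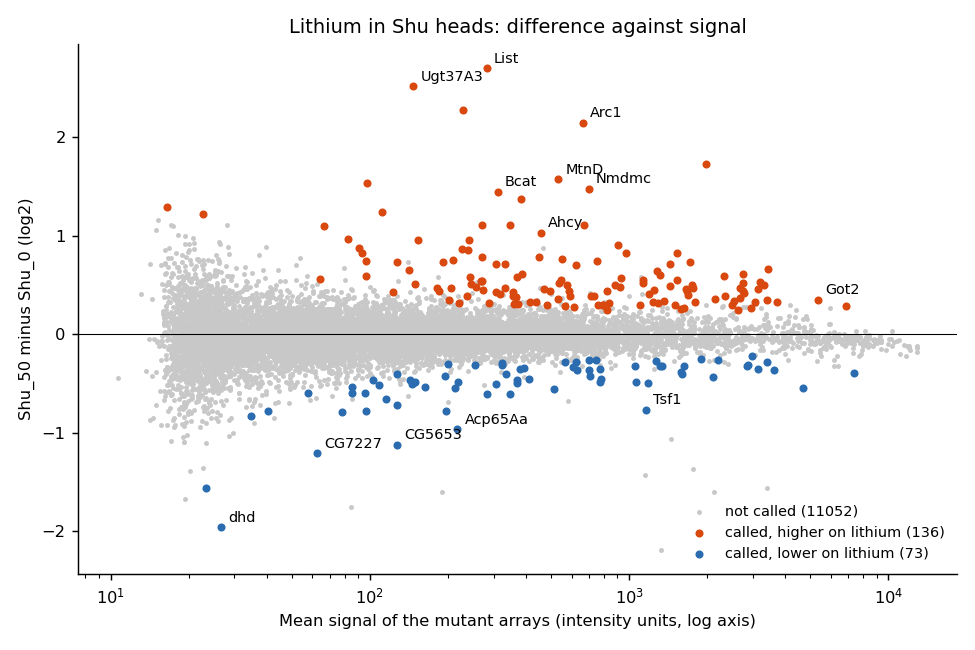
Each point is 1 of the 11261 tested probe sets, with the mean signal of the 6 mutant arrays on the x axis (log scale) and the log2 difference Shu_50 minus Shu_0 on the y axis. The 136 probe sets called higher (orange) reach 2.70 for List, and the 73 called lower (blue) reach -1.96 for dhd, while uncalled points (grey) spread widest where the signal is low.

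The gene that carries the mutation comes first. para (probe set 1627300_at, X:16455027-16533096) had signals of 87.1, 99.9 and 82.8 in Shu_0 replicates 1, 2 and 3 and of 118, 102 and 107 in Shu_50. The groups did not overlap, and the difference did not pass the test (log2 0.27 ± 0.10, adjusted p = 0.297). A changed base in a channel gene need not change its transcript level, so this probe set does not check the genotype. Among the 10 tested genes of the sodium channel and its regulators limma called none, although 2 were higher before adjustment (p under 0.05) and none was lower, where 5.85% and 6.05% of all probe sets were, and the median was 0.0551. Teh3, which encodes an accessory protein of the channel, gave log2 0.24 ± 0.11, adjusted p = 0.372.

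The largest rise was that of an amino acid transporter. List (1636594_at, 2R:18727817-18730281), of the SLC6 family of sodium-coupled carriers, had signals of 101, 108 and 104 in the 3 arrays without treatment. On lithium they were 693, 752 and 700.2. The lowest lithium array lay several times above the highest untreated array, a rise of 6.52-fold (log2 2.70 ± 0.09, adjusted p = 7.19e-12). Its probe set 1632986_a_at went from 117, 87.2 and 89.7 to 504, 455 and 533 (log2 2.28 ± 0.12, adjusted p = 5.31e-09). Its last probe set, 1626311_at, was dim and not called, with mean signals of 20.8 and 21.4 (log2 0.06 ± 0.29, adjusted p = 0.964). The gene's name stands for lithium-inducible transporter, so its rise on lithium was already known and adds no independent evidence. Of the 22 tested amino acid transporters List was the 1 that rose and none fell (4.55%, against 1.86% of all probe sets). The median of the list was -0.0464.

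Arc1, a gene switched on by neuronal activity whose product packs RNA into capsids that pass between cells, rose in both of its probe sets. Probe set 1639180_at, 2R:14357927-14360297 read 1111, 974 and 1143 without treatment and 3705, 3495 and 3552 on lithium (log2 1.73 ± 0.12, adjusted p = 5.81e-07). Probe set 1639694_s_at read 341, 268 and 319 and then 1499, 1224 and 1453 (log2 2.15 ± 0.16, adjusted p = 5.81e-07). The groups lay far apart in both. Of the 16 activity-regulated genes tested, Arc1 rose and Atf3, a stress-responsive transcription factor, fell (log2 -0.32 ± 0.06, adjusted p = 0.0123), and the median of the list was 0.0334. The share called was 12.5%, against 1.86% of all probe sets. The call of Atf3 was lost with Shu_50 replicate 3 left out (adjusted p = 0.0769), as it was without the intensity trend (adjusted p = 0.0547).

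Other large rises came from genes of detoxification, metal handling, folate and amino acid metabolism and from several genes without a well known role. Ugt37A3 (1638182_at, 3R:12741958-12743680), a UDP-glycosyltransferase, which attaches sugars to foreign compounds, had signals of 52.0, 50.0 and 49.0 and of 156, 667 and 307. Its lithium arrays spread over a wide range but all lay above the untreated ones (log2 2.52 ± 0.43, adjusted p = 0.00317). CG7763 (1626144_at, 2R:11414510-11415462) went from 47.6, 51.9 and 53.8 to 154, 164 and 162 (log2 1.53 ± 0.15, adjusted p = 1.58e-05), with no overlap. CG15784 (1640884_at, X:5429571-5432526) went from 443, 417 and 485 to 850.4, 989 and 1103 (log2 1.11 ± 0.17, adjusted p = 0.00157). CG11425 (1633796_at, 3L:22474795-22475792) went from 232, 266 and 193 to 493, 467 and 544 (log2 1.11 ± 0.12, adjusted p = 3.78e-05). In each of these the lowest lithium array was above the highest untreated one. CG34136 (1626759_at, 2L:21096922-21098932) rose by 0.96 (adjusted p = 0.000925). CG8112 (1636353_s_at, 3R:8712933-8715263) read 617, 664 and 679.6 and 1345, 1182 and 1182 (log2 0.91 ± 0.07, adjusted p = 1.06e-06). Cpr64Ac (1625570_at, 3L:4211964-4212915), a protein of the cuticle, read 44.3, 56.2 and 57.7 and 112, 99.4 and 114 (log2 0.97 ± 0.15, adjusted p = 0.00131). The call of Ugt37A3 was lost without the intensity trend (adjusted p = 0.0718).

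**Figure D2:**
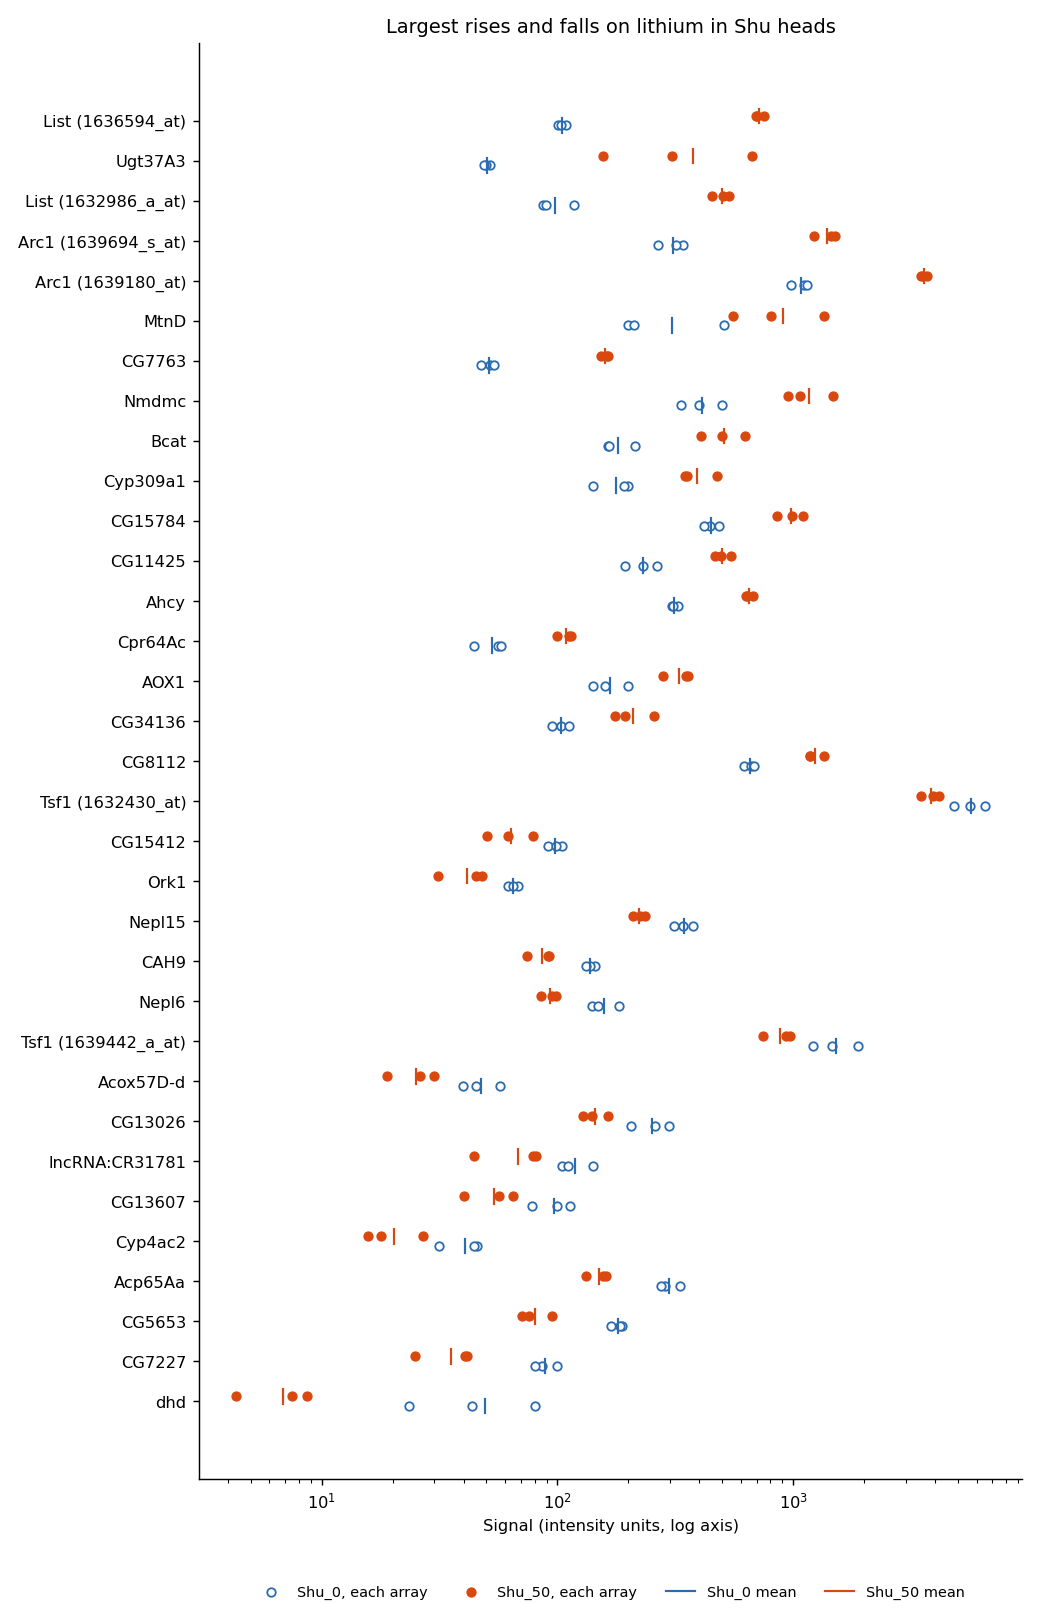
Signal of the 15 genes with the largest rises and the 15 with the largest falls among called probe sets whose arrays do not overlap, on a log axis, with every called probe set so chosen on a line of its own. Open blue circles are the 3 Shu_0 arrays, filled orange circles the 3 Shu_50 arrays and short bars the group means. For List (1636594_at) the lithium arrays lie between 693 and 752 and the untreated between 101 and 108, and dhd and MtnD show the wide spread between arrays given in the text.

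Many enzymes of serine, glycine and folate metabolism rose. Of 19 tested genes 8 were called higher and none lower, 42.1% of them against 1.86% of all probe sets, while 11 were not called. Before adjustment 11 were higher and 1 was lower at a p under 0.05 in limma. The same 8 stayed called without any 1 mutant array. The median of the list was 0.353 and its lowest member lay at -0.56. The enzymes of serine synthesis all rose. CG6287 (1629207_at, 2L:11151506-11155721), the phosphoglycerate dehydrogenase that takes the first step, read 2120.4, 1991 and 2008 in Shu_0 and 2743, 2669 and 2628 in Shu_50 (log2 0.39 ± 0.05, adjusted p = 0.000457). CG11899 (1625613_at, 3R:29200454-29201770), the phosphoserine aminotransferase of the second step, read 850.2, 1019 and 924 and 1327, 1383 and 1383 (log2 0.55 ± 0.07, adjusted p = 0.000122). aay (1633488_at, 3L:9423253-9424781), the phosphoserine phosphatase of the last step, read 2292, 2366 and 2209.9 and 3288, 3301 and 3267 (log2 0.52 ± 0.05, adjusted p = 2.66e-05). None of these groups overlapped, and the arrays of a group differed little.

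The enzymes that carry the serine carbon to folate rose further. Shmt (1640594_at, X:5913067-5916797), which moves that carbon onto tetrahydrofolate and leaves glycine, read 1240.1, 1382 and 1359 in Shu_0 and 2198, 2039.9 and 2396 in Shu_50 (log2 0.73 ± 0.07, adjusted p = 1.93e-05). Nmdmc (1640775_a_at, 3R:9042508-9050555), a mitochondrial dehydrogenase and cyclohydrolase of folate, read 335, 400.5 and 500.2 and 1065, 947 and 1478 (log2 1.48 ± 0.17, adjusted p = 9.80e-05). pug (1637444_s_at, 3R:10696534-10703316), a folate enzyme of several activities in the cytosol, read 1803, 1812 and 2056 and 2860.1, 2869 and 2804 (log2 0.59 ± 0.06, adjusted p = 4.39e-05). The rise of Nmdmc was the largest of the list. CG3999 (1624695_at, 3R:10251518-10255268), the glycine decarboxylase of the glycine cleavage system, read 195, 183 and 224 and 353, 302 and 396 (log2 0.78 ± 0.11, adjusted p = 0.000724). Tdh (1625052_at, 3L:20466944-20469592), the threonine dehydrogenase that leads threonine to glycine, read 158, 169 and 140.2 and 275, 238 and 286 (log2 0.75 ± 0.10, adjusted p = 0.000365). For all 8 enzymes the lowest lithium array lay above the highest untreated one, as in 7.57% of all probe sets. A call on the same arrays makes such separation likely, here and for the other called genes, so it adds no support.

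In the methionine cycle 2 of 11 tested genes rose and none fell (18.2%, against 1.86% of all probe sets). Ahcy (1629222_at, X:15450261-15453167), the hydrolase that clears S-adenosylhomocysteine after methyl transfer, read 326, 305 and 309.9 in Shu_0 and 675, 637 and 630.2 in Shu_50 (log2 1.03 ± 0.09, adjusted p = 6.56e-06). CG10621 (1626086_at, 2L:18952206-18954431), annotated here among the homocysteine methyltransferases, read 706, 658 and 844 and 972, 1015 and 1129 (log2 0.50 ± 0.08, adjusted p = 0.00192). The groups did not overlap in either gene, and Ahcy rose 2.04-fold. The median over the 11 genes, which also cover transsulfuration and glutathione synthesis, was 0.121.

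Of 11 tested genes of purine synthesis 4 rose and none fell (36.4%, against 1.86% of all probe sets called). Their median was 0.349, and 7 were higher at an unadjusted p under 0.05 by limma, where 5.85% of all probe sets were. Prps (1634130_a_at, 3L:9683579-9696700), which makes the activated ribose that the ring is built on, read 2139, 2475 and 2600.3 and 3126, 3063 and 3429 (log2 0.42 ± 0.08, adjusted p = 0.0124). Gart (1637037_at, 2L:7014623-7023898), which takes 3 of the steps that follow, read 660.1, 711 and 796 and 1239, 1195 and 1427 (log2 0.83 ± 0.08, adjusted p = 1.03e-05). Pfas (1629194_s_at, 2L:6041181-6046050), an amidotransferase of the ring, read 469, 447 and 525 and 743, 745 and 873 (log2 0.70 ± 0.08, adjusted p = 4.88e-05). Gart and Pfas stayed called without any 1 mutant array. Paics (1640599_at, X:12757036-12760617), which adds a carboxyl group and aspartate, read 3024, 2771 and 3264 and 3609, 3917 and 4001 (log2 0.35 ± 0.07, adjusted p = 0.0124). The call of Prps was lost with Shu_0 replicate 1 or Shu_50 replicate 3 left out (adjusted p = 0.089 and 0.0693), and that of Paics with Shu_0 replicates 1 or 2 or Shu_50 replicate 3 left out (adjusted p = 0.0533, 0.0562 and 0.0619). The list then held 2 called genes without Shu_0 replicate 1 and 2 without Shu_50 replicate 3, and 5 without Shu_0 replicate 3 or Shu_50 replicate 2. A fit with no trend lost the calls of Prps and Paics (adjusted p = 0.121 and 0.11). None of 7 genes of pyrimidine synthesis was called, and none passed an unadjusted p of 0.05 in limma.

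The pentose phosphate pathway had 5 tested genes, of which 4 rose and none fell (80%, against 1.86% of all probe sets), with a median of 0.393. Pgls (1636351_at, X:10847438-10848534), the lactonase of the oxidative branch, read 531, 555 and 453 and 708, 623 and 683 (log2 0.39 ± 0.08, adjusted p = 0.0163). Rpi (1627655_at, 2R:23355183-23356441), the ribose phosphate isomerase, read 263, 348 and 307 and 375, 400.2 and 431 (log2 0.39 ± 0.09, adjusted p = 0.0202). CG8036 (1627910_s_at, 3R:8667868-8673702), a transketolase, read 1444, 1525 and 1523 and 2122, 1999.7 and 2111 (log2 0.47 ± 0.07, adjusted p = 0.000641). Taldo (1640549_at, 2R:23940410-23942114), the transaldolase, read 2851, 2684 and 2506 and 3802, 3474 and 3795 (log2 0.46 ± 0.07, adjusted p = 0.0016). The transketolase and the transaldolase, which shuttle carbon between sugars, stayed called without any 1 mutant array. The call of Pgls was lost with Shu_0 replicate 3 or Shu_50 replicates 1 or 3 left out (adjusted p = 0.0961, 0.0947 and 0.0688), and that of Rpi with Shu_0 replicates 1 or 3 or Shu_50 replicates 2 or 3 left out (adjusted p = 0.113, 0.061, 0.0502 and 0.113), so that 2 genes of the list were called without Shu_0 replicate 3 or Shu_50 replicate 3. A fit with no trend lost the calls of Pgls and Rpi (adjusted p = 0.121 and 0.115).

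**Figure D3:**
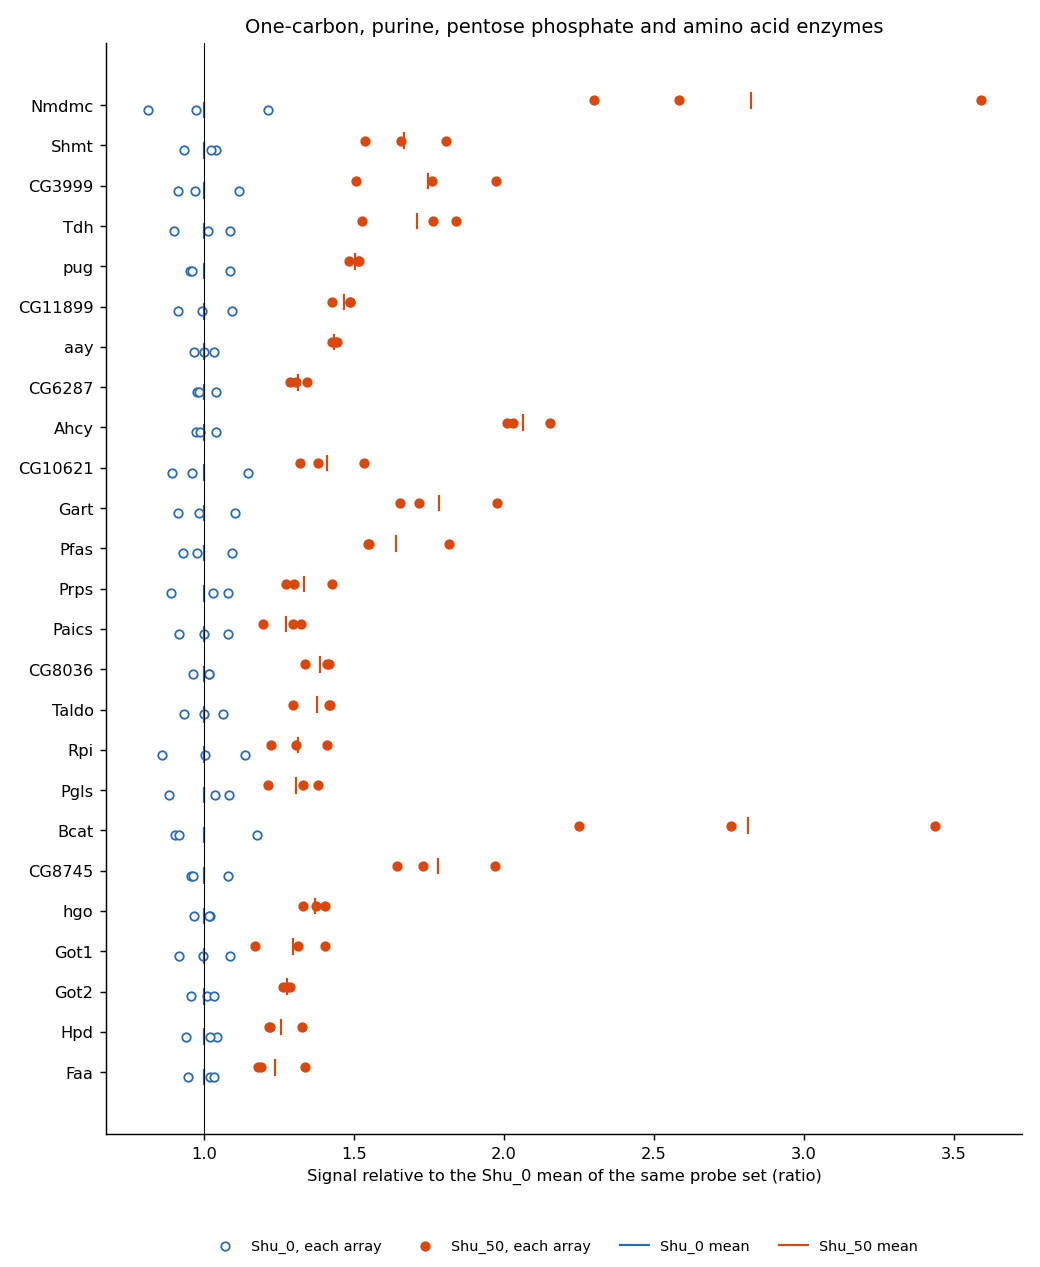
Signal of each mutant array divided by the Shu_0 mean of the same probe set, for 25 called enzymes ordered from folate and serine metabolism at the top through purine synthesis and the pentose phosphate pathway to amino acid breakdown. Open blue circles are Shu_0 arrays, filled orange circles Shu_50 arrays, and bars the group means. In each line all Shu_50 arrays lie to the right of all Shu_0 arrays, with Nmdmc and Bcat farthest to the right.

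Amino acid breakdown had 29 tested genes, of which 7 rose and none fell, 24.1% of them against 1.86% of all probe sets called. Before adjustment limma put 18 higher at a p under 0.05, where 5.85% of all probe sets were, none lower, and the median was 0.19. Bcat (1623770_at, X:13396899-13401224), the aminotransferase of branched-chain amino acids, read 164, 166 and 214 in Shu_0 and 499.5, 408 and 623 in Shu_50 (log2 1.45 ± 0.13, adjusted p = 5.66e-06). CG8745 (1641270_at, 3L:13860027-13866905), a member of the aminotransferase family, read 1093, 1234 and 1098 and 1876, 1975 and 2251 (log2 0.83 ± 0.07, adjusted p = 1.87e-06). Got2 (1629055_a_at, 2L:1984512-1987758), the mitochondrial aspartate aminotransferase, read 4796, 4547 and 4907 and 6063, 6119.7 and 6006 (log2 0.35 ± 0.06, adjusted p = 0.00163). These 3 enzymes stayed called without any 1 mutant array. Got1, its cytosolic counterpart, rose by 0.37 (adjusted p = 0.00949), but was not called with Shu_0 replicate 3 or Shu_50 replicate 3 left out (adjusted p = 0.0647 and 0.0556). The other members that rose break down tyrosine in succession. Hpd, which makes homogentisate, rose by 0.33 (adjusted p = 0.00997). hgo, which opens its ring, rose by 0.44 (adjusted p = 0.00975). Faa, which splits the final product, rose by 0.30 (adjusted p = 0.0222), but was not called with Shu_0 replicate 1 or Shu_50 replicate 3 left out (adjusted p = 0.13 and 0.143). Leaving out the trend lost the calls of Got1, Hpd, hgo and Faa (adjusted p = 0.0657 to 0.11).

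Some enzymes of sugar metabolism rose, those of glucose synthesis among them. Of 22 tested genes of glycolysis, gluconeogenesis and glycogen 6 rose and none fell (27.3%, against 1.86% of all probe sets). Their median was 0.0452. The neighbouring genes Pepck2 and Pepck1, 1018 bases apart, encode the enzyme that commits oxaloacetate to glucose synthesis. Pepck2 (1634794_at, 2R:18527430-18535749) read 148, 172 and 194 in Shu_0 and 348, 266 and 329 in Shu_50 (log2 0.85 ± 0.13, adjusted p = 0.00131). Pepck1 (1633599_a_at, 2R:18536767-18539416) read 1893, 2039 and 2754 and 3237, 3064 and 3851 (log2 0.61 ± 0.12, adjusted p = 0.00971), and its call was lost with Shu_0 replicate 1 or Shu_50 replicate 3 left out (adjusted p = 0.0721 and 0.0585). fbp (1641066_s_at, 2L:19761587-19764136), the phosphatase that opposes the main control step of glycolysis, read 1488, 1475 and 1415 and 1938, 1852 and 1975 (log2 0.40 ± 0.05, adjusted p = 0.000415). Pgi, which interconverts the phosphates of glucose and fructose, rose by 0.33 (adjusted p = 0.00149). AGBE, the branching enzyme of glycogen, rose by 0.45 (adjusted p = 0.00622). The aldolase Ald1 rose by 0.50 in probe set 1633473_s_at (adjusted p = 0.000337), while its probe set 1631993_s_at gave 0.08 (adjusted p = 0.82). Of 6 sugar-digesting enzymes the maltase Mal-B2 (1623900_a_at, 2L:11849958-11852881) rose, from 970.5, 1003 and 1078 to 1645, 1545 and 1579 (log2 0.64 ± 0.06, adjusted p = 6.56e-06). The share called of the sugar-digesting enzymes was 16.7%. Leaving out the trend lost the calls of Pepck1 and AGBE (adjusted p = 0.115 and 0.0856).

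Of 25 tested genes of ketone body and lipid metabolism 2 rose and none fell (8%, against 1.86% of all probe sets). SCOT (1629939_a_at, 3L:1963143-1966805), the mitochondrial enzyme that activates ketone bodies for burning, read 321, 387 and 299.7 and 620.0, 559 and 560.2 (log2 0.78 ± 0.08, adjusted p = 4.13e-05), with no overlap between the groups. mino, a glycerol phosphate acyltransferase, rose by 0.27 (adjusted p = 0.0208), but was not called with Shu_0 replicates 1 or 3 or Shu_50 replicates 1 or 3 left out (adjusted p = 0.0981, 0.111, 0.0789 and 0.0814). Its call was also lost without the trend (adjusted p = 0.106). The counts cover the members of this list only. Acox57D-d, apolpp and the lipid droplet gene Jabba in probe set 1633076_at lie outside it, were called lower and are given below.

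Metal handling was less steady between arrays. Of 17 tested genes 4 rose and 1 fell (29.4%, against 1.86% of all probe sets). The count of rises was 0 without Shu_0 replicate 1, 1 without Shu_0 replicate 3 or Shu_50 replicate 2, and 2 without Shu_50 replicate 1. MtnD (1631962_at, 3R:20534962-20535301), a metallothionein, had signals of 200.2, 212 and 509.9 in Shu_0 and 554, 802 and 1349.7 in Shu_50 (log2 1.57 ± 0.30, adjusted p = 0.0079). The highest untreated array came close to the lowest lithium array, and the call was lost with Shu_0 replicate 1 left out (adjusted p = 0.0608). MtnB rose by 0.74 (adjusted p = 0.0374), but was not called with Shu_0 replicates 1 or 3 or Shu_50 replicates 2 or 3 left out (adjusted p = 0.183, 0.101, 0.151 and 0.143). MtnA, another metallothionein, rose by 0.29 (adjusted p = 0.0448), but was not called with Shu_0 replicates 1, 2 or 3 or Shu_50 replicates 1 or 2 left out (adjusted p = 0.0802, 0.128, 0.123, 0.0674 and 0.0952). Irp-1B, an iron regulatory protein, rose by 0.58 (adjusted p = 0.0223), but was not called with Shu_0 replicates 1 or 3 or Shu_50 replicates 1 or 2 left out (adjusted p = 0.0721, 0.115, 0.108 and 0.105). The member that fell was Tsf1, transferrin 1, the iron carrier of the hemolymph. Its probe set 1632430_at, X:18387084-18390344 read 6508, 4816 and 5625 in Shu_0 and 4143, 3924 and 3498 in Shu_50 (log2 -0.54 ± 0.10, adjusted p = 0.0058). Probe set 1639442_a_at read 1876, 1214 and 1467 and 966, 746 and 932 (log2 -0.77 ± 0.16, adjusted p = 0.0168), but was not called with Shu_0 replicates 1 or 3 or Shu_50 replicate 2 left out (adjusted p = 0.113, 0.0551 and 0.0768). Without the intensity trend all of these calls were lost, at adjusted p values from 0.087 for Tsf1 upwards.

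Enzymes of detoxification moved both ways. Of 65 tested cytochrome P450 genes 2 rose and 1 fell, with a median of -0.0574. Cyp309a1 (1626324_at, 2L:2562483-2564830) read 142, 199.7 and 191 and 346, 356 and 473 (log2 1.11 ± 0.17, adjusted p = 0.00106). Cyp6g1, known for its part in insecticide resistance, rose by 0.29 (adjusted p = 0.0124), but was not called with Shu_0 replicate 2 or Shu_50 replicates 1 or 3 left out (adjusted p = 0.0545, 0.0549 and 0.0585). Cyp4ac2, a dim probe set, went from 31.4, 45.6 and 44.4 to 27.0, 17.9 and 15.7 (log2 -0.83 ± 0.20, adjusted p = 0.0456), but was not called with Shu_0 replicates 2 or 3 or Shu_50 replicates 2 or 3 left out (adjusted p = 0.146, 0.165, 0.119 and 0.186). The glutathione transferases, which join glutathione to reactive compounds, split evenly, with 2 of 31 higher and 2 lower. GstE7 rose by 0.65 (adjusted p = 0.00661) and GstD2 by 0.82 (adjusted p = 0.0246), the latter not called with Shu_0 replicates 1 or 2 or Shu_50 replicates 2 or 3 left out (adjusted p = 0.0859, 0.0946, 0.115 and 0.0713). GstE14 (1631165_at, 2R:13239729-13241013) read 451, 495 and 479 in Shu_0 and 314, 364 and 362 in Shu_50 (log2 -0.45 ± 0.07, adjusted p = 0.00131). GstE12 fell by 0.28 on the log2 scale (adjusted p = 0.0137), but was not called with Shu_0 replicates 1 or 3 or Shu_50 replicates 1 or 3 left out (adjusted p = 0.0573, 0.062, 0.0674 and 0.0724). Ugt37A3 was the 1 of 20 glycosyltransferases called, and 3 were called higher without Shu_50 replicate 2. AOX1 (1640489_at, 3R:15532137-15537292), an aldehyde oxidase, read 142, 159 and 198 and 279.5, 351 and 357 (log2 0.96 ± 0.20, adjusted p = 0.0154), but was not called with Shu_0 replicates 1 or 2 or Shu_50 replicates 2 or 3 left out (adjusted p = 0.0975, 0.053, 0.0551 and 0.071). It was the 1 called of 7 genes of aldehyde oxidases and their cofactor, whose median was 0.3, and 2 were called without Shu_50 replicate 1. Leaving out the trend lost the calls of Cyp6g1, Cyp4ac2, GstE7, GstD2, GstE12 and AOX1 (adjusted p = 0.0596 to 0.143). The shares called were 4.62% of P450 genes, 12.9% of glutathione transferases and 5% of glycosyltransferases. That of the aldehyde oxidase list was 14.3%, against 1.86% of all probe sets.

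Some genes of stress and insulin signalling were called. Sesn, a stress-induced inhibitor of TOR signalling, read 378, 533 and 416 and 594, 618 and 682 (log2 0.52 ± 0.09, adjusted p = 0.00534). With Atf3 it made up the called members of the 15 tested genes of the integrated stress and unfolded protein responses. This was 13.3%, against 1.86% of all probe sets. ImpL2, a secreted protein that binds insulin-like peptides, rose from 160.2, 186 and 133 to 331, 203 and 372 (log2 0.86 ± 0.18, adjusted p = 0.0171), but was not called with Shu_0 replicates 1 or 3 or Shu_50 replicates 1 or 3 left out (adjusted p = 0.068, 0.101, 0.0957 and 0.103). Ilp5 (1624745_at, 3L:9823349-9823897), an insulin-like peptide made in neurosecretory cells of the brain, read 355, 354 and 350.2 and 285, 288 and 289 (log2 -0.29 ± 0.06, adjusted p = 0.0132). The arrays of Ilp5 were close within each group, and its call was lost with Shu_0 replicate 1 or Shu_50 replicate 1 left out (adjusted p = 0.0595 and 0.0597). ImpL2 and Ilp5 were the called members of 16 genes of insulin, TOR and FoxO signalling (12.5%). Of 10 heat shock proteins 1 was called (10%). This was l(2)efl, a small heat shock protein, which rose in 2 of its probe sets. Probe set 1626416_a_at gave log2 0.48 ± 0.08, adjusted p = 0.00351, and 1627242_at gave log2 0.26 ± 0.06, adjusted p = 0.0296, but was not called with Shu_0 replicates 1, 2 or 3 or Shu_50 replicates 1 or 2 left out (adjusted p = 0.0821, 0.0726, 0.101, 0.0684 and 0.0882). Its dim probe set 1635952_at was not called (0.59, adjusted p = 0.419). Without the intensity trend the calls lost were those of Sesn, Atf3 and ImpL2 (adjusted p = 0.0742, 0.0547 and 0.143) and both probe sets of l(2)efl (adjusted p = 0.0615 and 0.161). The chaperone Hsc70-1 lies outside the heat shock list, was called lower and is given below with its limits.

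The largest fall was that of dhd (1636303_at, X:5312171-5313125), a thioredoxin of the female germline. Its signals were 23.5, 80.4 and 43.4 in Shu_0 and 4.35, 7.49 and 8.7 in Shu_50 (log2 -1.96 ± 0.42, adjusted p = 0.0197). The untreated arrays spread widely, and the lithium arrays were near the offset, so the size depends on it, being -1.57 with double the offset and -2.55 with an offset of 1. The call was lost with Shu_0 replicates 2 or 3 or Shu_50 replicate 1 left out (adjusted p = 0.101, 0.0688 and 0.0913), and without the trend (adjusted p = 0.107). The array of highest dhd, Shu_0 replicate 2, was also the one of highest summed ovary and chorion signal, 556 against 188 and 201 in the other untreated arrays and 110 to 164 on lithium. Of the 5 markers of this list that passed the filter dhd was the 1 called (20%, against 1.86% of all probe sets). The part of such tissue in its fall was not tested.

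Among the other large falls, those of CG7227, CG5653, Acp65Aa and CAH9 stayed called under every alternative counted, which leaves out the fits without a wild type array. CG7227 (1634702_at, 2L:7994388-7998151) read 86.4, 80.5 and 99.5 in Shu_0 and 40.5, 41.2 and 24.8 in Shu_50 (log2 -1.21 ± 0.16, adjusted p = 0.000382). CG5653 (1627367_at, 3L:8964912-8966374) read 169, 188 and 185 and 70.6, 75.5 and 94.6 (log2 -1.12 ± 0.11, adjusted p = 1.38e-05). Acp65Aa (1639418_at, 3L:6152050-6152745), a cuticle protein of the adult, read 286, 276 and 332 and 133, 160.4 and 156 (log2 -0.96 ± 0.11, adjusted p = 7.01e-05). These 3 had no overlap between the groups. CG13026 (1625401_at, 3L:16724678-16726169) fell from 296, 258 and 205 to 140.0, 128 and 164 (log2 -0.78 ± 0.13, adjusted p = 0.00282). CAH9 (1637067_at, 3R:27102988-27106184), a carbonic anhydrase, read 144, 138 and 132 and 91.3, 74.0 and 92.1 (log2 -0.65 ± 0.10, adjusted p = 0.00124). The falls of CG13607 (-0.79, adjusted p = 0.0132) and of the non-coding lncRNA:CR31781 (-0.78, adjusted p = 0.0213) were less steady. The call of CG13607 was lost with Shu_0 replicate 1 or Shu_50 replicate 3 left out (adjusted p = 0.0959 and 0.0722), and that of lncRNA:CR31781 with Shu_0 replicates 2 or 3 left out (adjusted p = 0.0973 and 0.0532). A second probe set of lncRNA:CR31781, 1637394_s_at, was not called (-0.41, adjusted p = 0.292). Acox57D-d, a peroxisomal acyl-CoA oxidase, gave -0.78, adjusted p = 0.035, but was not called with Shu_0 replicates 1 or 2 or Shu_50 replicates 1 or 3 left out (adjusted p = 0.184, 0.0711, 0.172 and 0.0764). CG15412 gave -0.60, adjusted p = 0.0448, but was not called with Shu_0 replicates 1, 2 or 3 or Shu_50 replicates 1 or 2 left out (adjusted p = 0.177, 0.0636, 0.127, 0.216 and 0.105). Leaving out the trend lost the calls of CG13026, CG13607, lncRNA:CR31781, Acox57D-d and CG15412 (adjusted p = 0.05 to 0.128).

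Secreted and membrane-bound peptidases of the neprilysin family, which break down small peptides, fell in 3 of 22 tested genes and rose in none. This was 13.6%, against 1.86% of all probe sets, and all 3 calls held without any 1 mutant array. Nepl6 (1631405_at, 2L:6383435-6385512) read 183, 140.0 and 149 in Shu_0 and 85.4, 94.5 and 98.5 in Shu_50 (log2 -0.72 ± 0.12, adjusted p = 0.00363). Nepl15 (1638585_at, 3R:22763960-22766172) read 377, 313 and 340.1 and 208, 223 and 236 (log2 -0.61 ± 0.09, adjusted p = 0.00124). Nepl21 (1628258_at, 3R:28883693-28886015) read 875, 767 and 789 and 605, 610.5 and 594 (log2 -0.42 ± 0.07, adjusted p = 0.00195). None of the 3 had overlapping groups, and the median over the 22 genes was -0.13.

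Further secreted proteins fell in small number. Of 60 tested cuticle and chitin-binding proteins 2 fell, Acp65Aa and Cpr49Ag, and 1 rose, Cpr64Ac. Without Shu_50 replicate 3 the count called lower was 4, and without Shu_0 replicate 2 that called higher was 2. Cpr49Ag (1629747_at, 2R:12407793-12408523) read 1472, 1345 and 1382 and 998, 1062 and 918 (log2 -0.49 ± 0.06, adjusted p = 0.000237). Of 16 antimicrobial peptide genes 1 fell, the drosomycin-like Drsl4 (1628617_at, 3L:3315620-3315942), from 929, 929 and 874 to 623, 636 and 688 (log2 -0.49 ± 0.08, adjusted p = 0.00157). Both genes stayed called without any 1 mutant array. Of 24 genes of immune recognition and signalling 1 fell, PGRP-LA, of the peptidoglycan recognition family (-0.31, adjusted p = 0.0413), but was not called with Shu_0 replicates 1, 2 or 3 or Shu_50 replicates 1 or 2 left out (adjusted p = 0.121, 0.0794, 0.127, 0.146 and 0.136). Of 29 odorant binding proteins 1 fell, Obp99a (-0.39, adjusted p = 0.0163), but was not called with Shu_0 replicates 1 or 3 or Shu_50 replicate 1 left out (adjusted p = 0.0837, 0.0814 and 0.106), while 2 of the list were called lower without Shu_0 replicate 2 and 3 without Shu_50 replicate 2. The calls lost with no trend were those of PGRP-LA and Obp99a (adjusted p = 0.103 and 0.14). Ilp5 was the 1 called of 27 neuropeptides, whose median was -0.0955. The shares called were 5% of cuticle and chitin-binding proteins, 6.25% of antimicrobial peptides and 4.17% of immune recognition and signalling genes. They were 3.45% of odorant binding proteins and 3.7% of neuropeptides, against 1.86% of all probe sets.

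The calls among genes of nerve cell excitability were each lost without some array. Of 28 tested potassium, calcium and chloride channel genes 1 rose and 2 fell. This was 10.7% of them, and 7.14% were called in transmitter synthesis, against 1.86% of all probe sets. SK, a potassium channel opened by calcium, rose by 0.32 in probe set 1627752_s_at (adjusted p = 0.0249), but was not called with Shu_0 replicate 1 or Shu_50 replicates 1 or 3 left out (adjusted p = 0.152, 0.14 and 0.0846). Its other probe sets gave 0.27, adjusted p = 0.151 (1625065_s_at) and 0.20, adjusted p = 0.785 (1635657_s_at). slo, the potassium channel opened by calcium and voltage together, gave log2 -0.42 ± 0.10, adjusted p = 0.0395, but was not called with Shu_0 replicates 1, 2 or 3 or Shu_50 replicates 1 or 3 left out (adjusted p = 0.0821, 0.138, 0.0829, 0.197 and 0.0886). Ork1, a leak channel for potassium, went from 68.0, 61.8 and 65.1 to 47.8, 45.0 and 31.1 (log2 -0.60 ± 0.14, adjusted p = 0.0424), but was not called with Shu_0 replicates 1, 2 or 3 or Shu_50 replicate 3 left out (adjusted p = 0.161, 0.0697, 0.117 and 0.184). Of 14 genes of transmitter synthesis pr, which makes a precursor of tetrahydrobiopterin, fell (-0.32, adjusted p = 0.0427), but was not called with Shu_0 replicates 1 or 2 or Shu_50 replicates 1 or 3 left out (adjusted p = 0.22, 0.0805, 0.149 and 0.171), while 2 of this list were called lower without Shu_50 replicate 2. Without the intensity trend the calls lost were those of SK, slo, Ork1 and pr (adjusted p = 0.074 to 0.201).

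None was called among 31 transmitter receptors, 17 genes of the synaptic vesicle cycle, 12 ion pumps and cotransporters or 6 genes of calcineurin. At an unadjusted p under 0.05 in limma, 2 receptors were lower, no receptor was higher, the vesicle list held 2 in each direction, and the pumps and calcineurin held none. The lowest p among the receptors belonged to the dopamine receptor Dop1R1 (-0.53, adjusted p = 0.126) and the nicotinic subunit nAChRalpha4 (-0.29, adjusted p = 0.24). Without Shu_50 replicate 2 the vesicle list held 1 gene called lower, and without Shu_0 replicate 2 it held 1 called higher. In the vesicle cycle cpx, a clamp of fusion, gave -0.22, adjusted p = 0.151 and the clathrin adaptor lap 0.35, adjusted p = 0.26. The sodium pump subunit nrv1 gave -0.14, adjusted p = 0.468 and the exchanger Nhe1 -0.21, adjusted p = 0.429. Among 15 genes listed for GSK-3 and inositol enzymes, which include known targets of lithium, none was called. In limma 2 in each direction had an unadjusted p under 0.05, and 1 was called lower without Shu_50 replicate 2. The list leaves out the inositol oxygenase Miox, which was called higher and is given below with its limits. Of 22 listed Wnt pathway genes 7 had a probe set that names them alone, and the others were not assessed. None of the 7 was called, nor did any pass an unadjusted p of 0.05 in limma.

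Large machineries of the cell also gave no call by limma. Among 59 genes of oxidative phosphorylation 13 were lower before adjustment (p under 0.05), as were 6.05% of all probe sets, no gene was higher, and the median was -0.0991. Without Shu_50 replicate 2 the count called lower was 2. ND-42, a subunit of the first complex, came nearest to a call (-0.28, adjusted p = 0.0508), and UQCR-Q, of ubiquinol-cytochrome c reductase, gave -0.28, adjusted p = 0.108. Of 15 genes of the citric acid cycle 2 were lower and 1 higher at that unadjusted level, with mAcon1 at -0.19, adjusted p = 0.186 and SdhD at -0.18, adjusted p = 0.204. Of 26 proteasome genes 4 were higher, with Rpn8 at 0.22, adjusted p = 0.155 and Rpt3 at 0.25, adjusted p = 0.168. Of 18 cytosolic tRNA synthetases 2 were higher, GlnRS (0.22, adjusted p = 0.286) and TyrRS (0.20, adjusted p = 0.264). Mitochondrial ribosomal proteins (69 genes) held 2 higher and 3 lower and cytosolic ones (36 genes) 1 lower, with 1 of the cytosolic called lower without Shu_0 replicate 1 or 2. The median of the cytosolic ribosomal list was -0.0532 and turned to 0.00913 under quantile normalization. Of 12 genes of oxidative stress defence 1 was lower at the unadjusted level, and Prx3, a mitochondrial peroxiredoxin, gave -0.18, adjusted p = 0.256.

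The lists of phototransduction, eye pigment and clock genes held no call either. This covers their members only, since pr, counted with transmitter synthesis, and rdhB, a retinol dehydrogenase of the eye, lie outside them and were called lower. Of 17 phototransduction genes none was called by limma, 1 was higher and 4 were lower at an unadjusted p under 0.05, and 1 was called lower without Shu_50 replicate 2. rdgA, the diacylglycerol kinase of photoreceptors, came nearest in probe set 1628730_at (-0.27, adjusted p = 0.0514), and ninaB, which cleaves carotenoids for the visual pigment, gave -0.24, adjusted p = 0.0869. Of 13 eye pigment genes 2 were higher and 1 lower at that level, 1 was called higher without Shu_50 replicate 1 and 1 lower without Shu_50 replicate 2, with se at -0.28, adjusted p = 0.07 and ry, xanthine dehydrogenase, at 0.39, adjusted p = 0.0911. Of 11 clock genes 1 was higher and 1 lower, with cwo at 0.38, adjusted p = 0.157 and vri at -0.16, adjusted p = 0.348. None of 20 genes of the vacuolar proton pump passed even the unadjusted level.

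**Figure D4:**
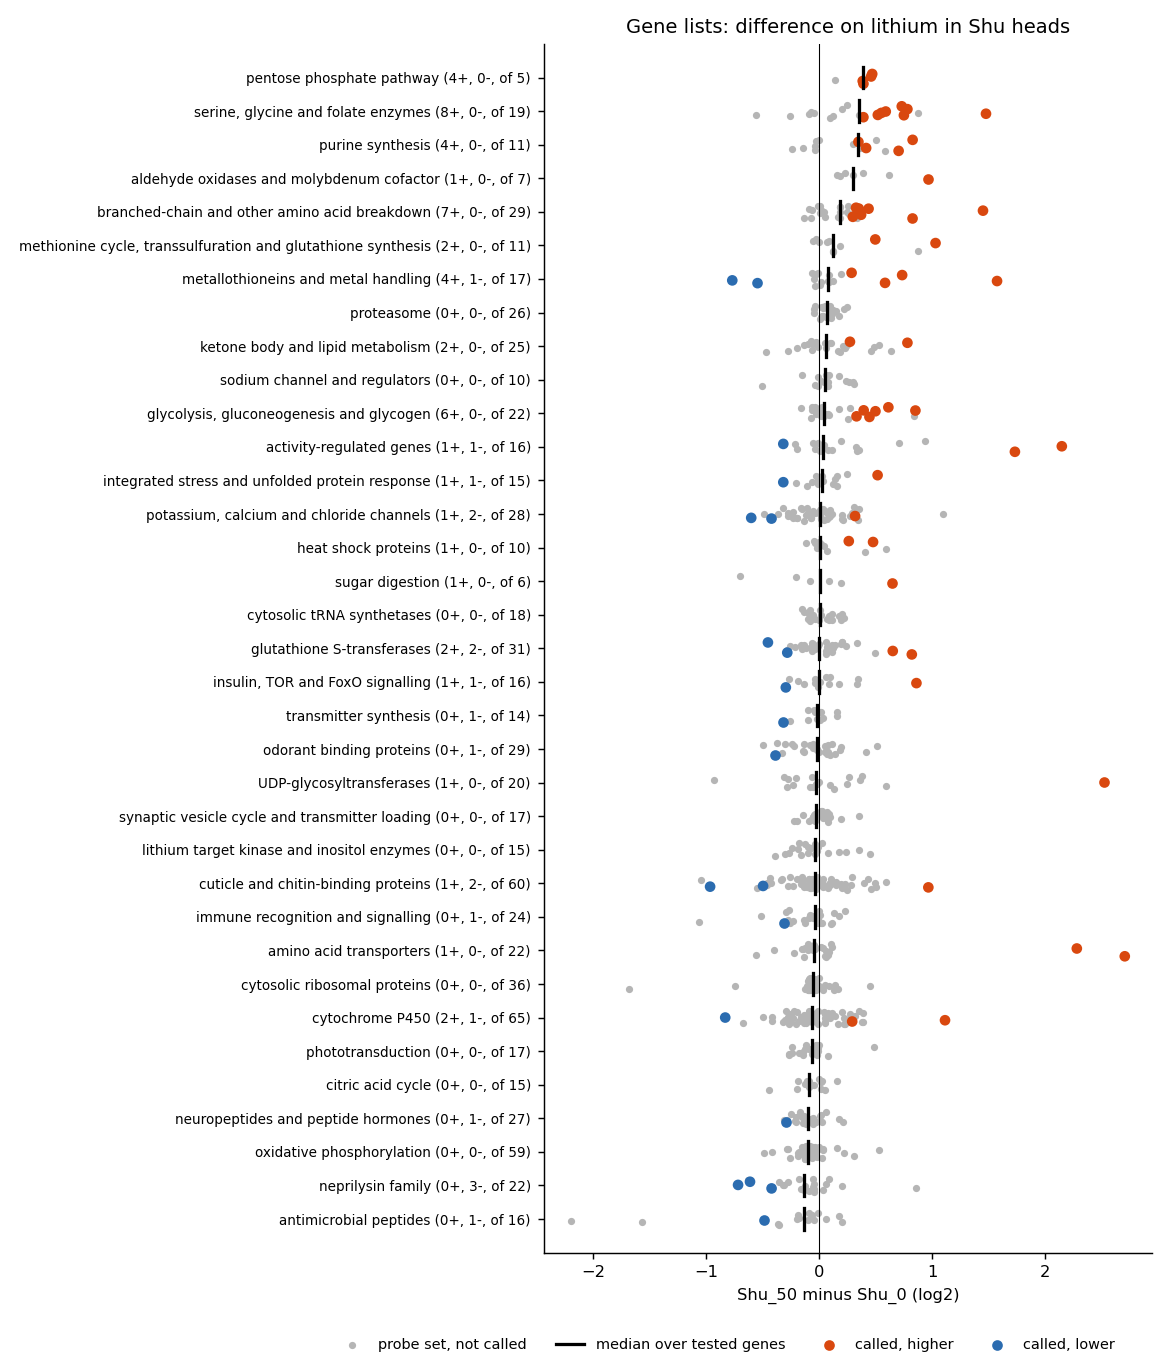
Log2 difference Shu_50 minus Shu_0 of each tested probe set in 35 gene lists, ordered by the median over genes (black bars), with called probe sets in orange (higher) and blue (lower) and the counts of called genes beside each name. The pentose phosphate, serine and folate, and purine lists stand at the top with medians of 0.393, 0.353 and 0.349, and most other medians lie near 0.

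Some markers of cell types were called. Muscle markers had 2 called genes of 16 tested (12.5%, against 1.86% of all probe sets), Act87E and TpnC41C, both higher. At an unadjusted p under 0.05 in limma 6 of the 16 were higher and 3 lower, where 5.85% and 6.05% of all probe sets were. Without Shu_0 replicate 2 or Shu_50 replicate 2, 1 muscle marker was called lower. The summed muscle signal was 46549 to 49473 in Shu_0 and 48527 to 51946 in Shu_50, which overlapped. The actin Act87E (1636348_s_at, 3R:13425983-13428375) read 2726, 2751 and 2848 in Shu_0 and 4105, 3984 and 3701 in Shu_50 (log2 0.50 ± 0.06, adjusted p = 6.68e-05). The troponin C gene TpnC41C (1625752_at, 2R:5065237-5070210) read 2292, 2341 and 2426 and 3061, 3319 and 3181 (log2 0.44 ± 0.05, adjusted p = 0.000153). Both stayed called without any 1 mutant array. Fat body markers had 2 called genes of 10 tested (20%), both lower, Tsf1 and apolpp, the precursor of lipid carriers in the hemolymph. Before adjustment 5 of the 10 were lower and 1 was higher at a p under 0.05 in limma. The count called lower was 4 without Shu_50 replicate 2 and 2 without Shu_0 replicate 2, and 1 without any of the other 4 arrays. apolpp gave log2 -0.40 ± 0.09, adjusted p = 0.0218, but was not called with Shu_0 replicates 1 or 3 or Shu_50 replicates 1 or 3 left out (adjusted p = 0.129, 0.101, 0.112 and 0.112), nor without the trend (adjusted p = 0.154). The summed fat body signal was 60463 to 73212 in Shu_0 and 51021 to 64780 in Shu_50, an overlap, and the part of fat body in the falls of Tsf1 and apolpp was not tested. Glial markers summed to 13563 to 14376 and then to 13141 to 13516, which did not overlap, and none of the 11 was called, while 2 were lower at an unadjusted p under 0.05 by limma. Neuron markers summed to 12405 to 12603 and 11951 to 12537, and photoreceptor markers to 36660 to 42398 and 34255 to 41619.

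Other called genes outside these lists were picked after their values were seen. smp-30, named for a senescence marker protein of mammals, read 403, 403 and 442 in Shu_0 and 709, 636 and 801 in Shu_50 (log2 0.77 ± 0.10, adjusted p = 0.000449), and its dimmer probe set 1636973_at gave 0.67 (adjusted p = 0.125). Sugar enzymes among them were the galactokinase Galk (0.55, adjusted p = 0.00124) and Pgm2a, a phosphoglucomutase relative, in both probe sets (0.54, adjusted p = 0.00143, and 0.58, adjusted p = 0.00991). The second call of Pgm2a was lost with Shu_0 replicate 1 or Shu_50 replicate 3 left out (adjusted p = 0.0721 and 0.0603). Aldh7A1, an aldehyde dehydrogenase of lysine breakdown, rose by 0.31 (adjusted p = 0.00841), and su(r), which breaks down pyrimidines, by 0.41 (adjusted p = 0.00232). Miox, the oxygenase that opens the ring of inositol, rose from 945, 1328 and 1061 to 1981, 1405 and 2139 (log2 0.72 ± 0.14, adjusted p = 0.00818), but was not called with Shu_0 replicate 1 or Shu_50 replicate 1 left out (adjusted p = 0.0641 and 0.0522). Among the falls rdhB, a retinol dehydrogenase of the eye, read 1249.9, 1233 and 1278 and 794, 971 and 927 (log2 -0.48 ± 0.07, adjusted p = 0.00103). Hsc70-1, a chaperone, fell in probe sets 1639380_a_at (-0.51, adjusted p = 0.000415) and 1636956_at (-0.40, adjusted p = 0.0106), the latter not called with Shu_0 replicate 1 left out (adjusted p = 0.0726). Its remaining probe set, 1627963_s_at, gave -0.51 (adjusted p = 0.326). Leaving out the trend lost the calls of Miox, of the second Pgm2a probe set and of Hsc70-1 in 1636956_at (adjusted p = 0.0773 to 0.106). The other called probe set of each of Pgm2a and Hsc70-1 kept its call.

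Some of the calls named so far were also lost under other settings. The fit to the 6 mutant arrays alone lost those of Acox57D-d, CG15412, Cyp4ac2, Faa, GstE12, MtnA, MtnB, Ork1, PGRP-LA, Rpi, SK, apolpp, l(2)efl in 1627242_at, lncRNA:CR31781, mino and pr (adjusted p = 0.0589 to 0.187). Without the filter on dim probe sets, which adjusts over more tests, those lost were Acox57D-d, CG15412, Cyp4ac2, GstD2, MtnA, MtnB, Ork1, PGRP-LA, apolpp, l(2)efl in 1627242_at, pr and slo (adjusted p = 0.0503 to 0.118). Quantile normalization lost that of Cyp4ac2 (adjusted p = 0.0551), array weights those of Cyp4ac2, MtnA, MtnB and Ork1 (adjusted p = 0.0536 to 0.0837), and the replicate block those of Cyp4ac2, MtnA and PGRP-LA (adjusted p = 0.0536 to 0.0733).

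The called genes were spread over the genome. The share of tested genes that was called lay between 1.54% on chromosome 4 and 2.58% on 2R. Of the called genes 8 neighbouring pairs lay within 10000 bases of each other, and 3 of the pairs moved in the same direction. Besides Pepck2 with Pepck1 these were CG4716 with CG42319 and CG1662 with Bcat. Tsf1 and Nt5b, 154 bases apart, moved in opposite directions (-0.54 and 0.33). Several probe sets were tested for 18 of the called genes; 15 of these genes had a probe set that was not called, and in 4 (Ae2, CG30427, cpo and ps) the probe sets differed in sign.

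The response in the mutant was then set beside that of the wild type, where 182 probe sets (1.62%) were called. The wild type difference comes from other arrays, but the tests of both genotypes use the spread pooled over all 12 arrays, so the calls are not independent. Of the 136 probe sets called higher in the mutant 133 were higher in the wild type too, as were 50.9% of all tested probe sets, and 69 of them were called there, where 0.995% of all probe sets were called higher. Of the 73 called lower 68 were lower in the wild type and 29 were called, against 0.622% of all. The call in the mutant chose these probe sets, which favours large differences there. The medians were 0.493 in the mutant and 0.339 in the wild type for those higher, and -0.455 and -0.261 for those lower. For the serine, glycine and folate list the median was 0.353 in the mutant and 0.22 in the wild type. For purine synthesis it was 0.349 and 0.117, and for the pentose phosphate pathway 0.393 in both. Prps gave 0.42 in the mutant and 0.12 in the wild type, and Paics 0.35 and 0.14, with no call in the wild type (adjusted p = 0.614 and 0.413). The difference between genotypes did not pass its own test for either gene (adjusted p of the interaction 0.713 and 0.742).

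**Figure D5:**
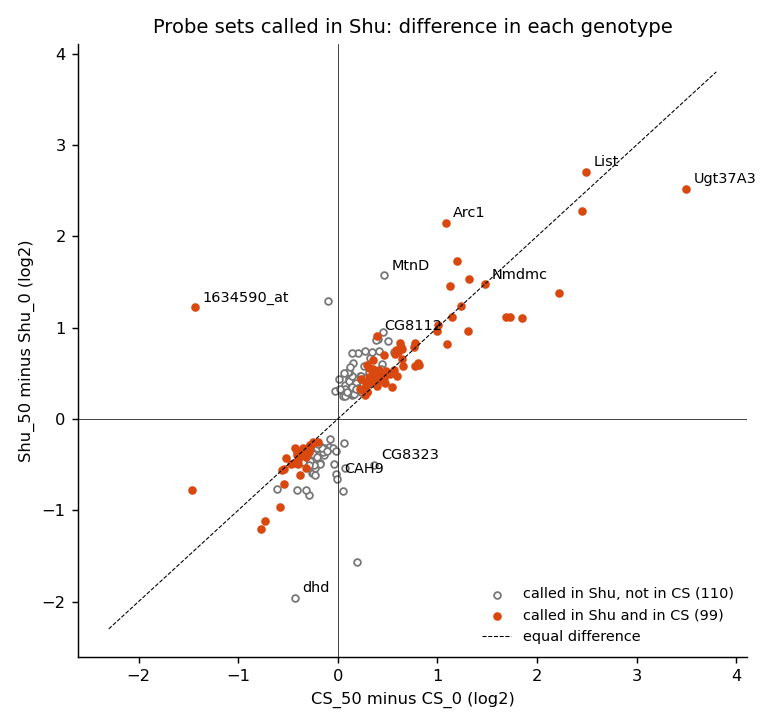
Log2 difference on lithium in the wild type (x axis, CS_50 minus CS_0) and in the mutant (y axis, Shu_50 minus Shu_0) for the 209 probe sets called in the mutant. Filled points were called in both genotypes and open points in the mutant and not in the wild type, and the dashed line marks an equal difference. Most points lie at the lower left and upper right, with the same sign in both genotypes, and 1634590_at (1.23 in the mutant and -1.43 in the wild type) and CG8323 (-0.50 and 0.37) are among the exceptions.

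A difference between the genotypes in the response to lithium passed the test for 1 of the 11261 probe sets (0.00888%), while 758 (6.73%) had an unadjusted p under 0.05 in limma. That probe set, 1634590_at, names no gene in the annotation used. Its signals were 11.2, 6.77 and 8.23 in Shu_0 and 27.5, 33.7 and 25.1 in Shu_50, against 45.0, 18.3 and 43.0 in CS_0 and 9.1, 8.39 and 7.78 in CS_50. It was thus dim and moved up in the mutant (log2 1.23) and down in the wild type (log2 -1.43), a difference of 2.66 ± 0.39 (adjusted p = 0.0416). The named genes of lowest p did not pass. CG8323 (1633690_at, 2R:14165051-14166991) read 152, 182 and 169 in Shu_0 and 118, 110.3 and 121 in Shu_50 (log2 -0.50 ± 0.10, adjusted p = 0.00991), but was not called with Shu_0 replicate 2 left out (adjusted p = 0.0521), and it was higher on lithium in the wild type (log2 0.37 ± 0.10, adjusted p = 0.0788). Its interaction was -0.87 ± 0.14, unadjusted p = 1.09e-05, adjusted p = 0.0613. Act87E differed by 0.50 in the mutant and 0.06 in the wild type (interaction 0.44 ± 0.08, unadjusted p = 4.10e-05, adjusted p = 0.154). CG8112 differed by 0.91 and 0.39 (interaction 0.52 ± 0.10, unadjusted p = 7.01e-05, adjusted p = 0.197). Arc1 differed by 2.15 and 1.08 in probe set 1639694_s_at (interaction 1.07 ± 0.22, unadjusted p = 0.000173, adjusted p = 0.389). CAH9 differed by -0.65 in the mutant and by about 0 in the wild type (interaction -0.65 ± 0.14, unadjusted p = 0.000266, adjusted p = 0.428). Jabba, a protein of lipid droplets, gave -0.54 and 0.07 in probe set 1633076_at (interaction -0.60 ± 0.14, unadjusted p = 0.0004, adjusted p = 0.563). Vha100-1, a subunit of the vacuolar proton pump, gave about 0 and 0.38 (interaction -0.38 ± 0.09, unadjusted p = 0.000595, adjusted p = 0.647), and Tapdelta -0.20 and 0.16 (interaction -0.36 ± 0.09, unadjusted p = 0.00105, adjusted p = 0.647).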

How the data were processed

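The deposited values are 1 linear intensity per probe set and array, read as the authors' deposited table gives them. Per the labels, total RNA was labelled by the standard Affymetrix protocol and no extraction protocol was supplied. The software that made the probe set intensities is not given in the sources used here. The mean after trimming 2% from both ends was 150.005 on every array, which shows a common scaling of the deposited intensity, and no further normalization was applied. Array medians were 23.9 to 25.8. Precision is limited by how few arrays there are. The title of CS_50 replicate 2 was followed although its description gives it as sample 1.

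Values were taken as log2(intensity + 6.26), the offset being the 25th percentile of all non-control values. Of 18952 probe sets 183 were controls, and the test took the 11261 others whose mean log2 value reached the 40th percentile, a signal of 11.5. Of these 9613 name 1 gene, 275 several and 1373 none, by the array annotation updated through gene numbers to release 6 of the genome, from which positions come. limma 3.58.1 under R 4.3.3 fitted 4 group means to all 12 arrays (lmFit, eBayes with an intensity trend, 8 residual degrees of freedom), two-sided, with Benjamini-Hochberg adjustment over all tested probe sets. A probe set was called at an adjusted p under 0.05, and the interaction is the difference between the lithium differences of the genotypes. The procedure was tested on simulated data. Plots used matplotlib 3.10.9 (Python 3.11.15).

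The text names para and List, the 15 largest rises and 15 largest falls among called probe sets naming 1 gene without overlap of arrays, every called gene of the gene lists, up to 2 genes of lowest p in lists with no call, those with the smallest interaction p, and other probe sets of these genes. A list's median takes each gene's brightest probe set. Lists use only probe sets that name 1 gene, so some were tested in part, such as 36 of 93 cytosolic ribosomal genes. The members and lists were chosen with earlier results of these data known. The alternatives were quantile normalization, an offset of 1, double the offset, no filter, a stricter filter (60th percentile), the 6 mutant arrays alone, a fit without the intensity trend, array weights, the replicate number as a block, and each array left out in turn. For the calls of single genes and lists in the mutant, only mutant arrays were left out.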

Additional observations from a re-analysis of the deposited data

Results flagged for a closer look

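Probe set 1634590_at, which names no gene, drew attention because the difference between the genotypes in the response to lithium passed its own test, the 1 probe set of 11261 that did. The difference was 2.66 on the log2 scale (SE 0.39, adjusted p = 0.0416 by limma), with all 3 mutant arrays higher on lithium and all 3 wild type arrays lower. Its signals lay between 6.77 and 45.0 in the 12 arrays, close to the offset of 6.26, and the reason for the opposite directions was not tested.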

How the results depend on the processing

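No called gene named in the report turned its direction under any alternative, while the median of the cytosolic ribosomal proteins (-0.0532) turned to 0.00913 under quantile normalization. The count of 209 called probe sets (136 higher, 73 lower) became 91 (63 and 28) without the intensity trend, and lay between 127 and 238 (90 to 146 and 37 to 92) with each mutant array left out in turn. The lowest of each came without Shu_0 replicate 1 (127, 90 and 37). It stayed within 1.5 times the reported count under the other alternatives, such as 170 with the 6 mutant arrays alone and 175 without the filter. Of the 209 probe sets 78 were called under every alternative counted, and 106 lost the call without some mutant array. Another 25 lost it without the intensity trend and under nothing else counted. The fits without a wild type array were not counted here, and a probe set removed by the stricter filter was not taken as lost. The interaction, 1 called probe set, had 2 under quantile normalization, array weights and the replicate block. It had 0 by limma without the filter, with the filter at the 60th percentile, without the trend, and without each mutant array, CS_0 replicate 1 or CS_50 replicate 2 (range 0 to 1). For lithium in the wild type the 182 calls became 118 without the filter, 44 without the trend, and 78 to 159 with an array left out, of which 112 without CS_0 replicate 1, 94 without CS_0 replicate 3, 84 without CS_50 replicate 2 and 78 without CS_50 replicate 3. The cause of these changes was not tested, beyond the fewer arrays or other number of tests each setting has. Same-numbered arrays of Shu_0 and Shu_50 did not deviate together (correlations 0.0146, -0.0649 and -0.0138). With 3 arrays a group this cannot decide whether they shared a culture or batch, which the labels do not give. The fit with the replicate number as a block called 236 probe sets (151 higher, 85 lower). Probe sets below a signal of 11.5 were not tested.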
